A study of Homo sapiens with 4 samples.

Results

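The genes described here are 10 members of the BCL2 family, which sets whether a cell survives or dies through its mitochondria: the survival genes BCL2, BCL2L1, MCL1 and BCL2A1, the effectors BAX and BAK1, and the BH3-only genes BCL2L11, BID, BBC3 and PMAIP1. They were taken by symbol from the sense features of the deposited tables. All 10 had an entry, out of 22798 genes, and 0 of them had a repeated symbol. The libraries came from Karpas 299, an established human line derived from a T lineage lymphoma, the ALK-positive anaplastic large cell type, with CD30 on its surface. Newly made RNA was labelled with bromouridine for the last 30 min of a 3 h treatment, captured with an antibody and sequenced (Bru-seq), so the values follow transcription rather than the amount of stored mRNA. There were 4 libraries, 1 per condition: cells with the solvent DMSO, cells with SM-164, a dimeric compound that mimics Smac and blocks inhibitor of apoptosis (IAP) proteins, cells placed on Chinese hamster ovary (CHO) cells, and cells placed on CD30L+ CHO cells, which display the CD30 ligand. The sources used here give no dose for SM-164. Both co-cultures were harvested by pipetting the lymphoma cells off the hamster layer, a step described for these cultures alone, and any hamster RNA carried along would be sequenced with them.

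Survival members hold BAX and BAK1 in check and bind BH3-only members in a groove on their surface. BAX and BAK1, once active, open the outer mitochondrial membrane and release cytochrome c, which starts the caspase cascade. BH3-only members are the sensors that death signals act on: BIM (from BCL2L11), PUMA (BBC3) and activated BID bind survival proteins and can also engage the effectors, whereas NOXA (PMAIP1) binds mainly MCL1 and BFL1, the product of BCL2A1. BCL2A1 and BCL2L1 are known targets of NF-kB, the transcription factor that CD30 and loss of c-IAP proteins activate.

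Library totals lay between 26217591 and 45885630 reads, and 1 library per condition means that no difference below has a replicate check. Intervals are 95% intervals for counting error only. No molecular identifiers are described that would mark reads copied from 1 molecule by PCR. Any such copies were counted as separate reads, so the intervals may be too narrow even for counting error. Of 7 markers of the line, 6 were at an RPKM (reads scaled to gene length and library total) of at least 0.5 in each library, among them TNFRSF8, the gene of CD30, at 4.97 to 12.3. Their summed RPKM, with ALK, was 67.0 with DMSO, 78.3 with SM-164, 37.4 on CHO cells and 51.6 on CD30L+ CHO cells, lower in both co-cultures, and the part of this in the members' values was not tested. From CHO to CD30L+ CHO cells the markers did not move together. IL2RA went from 14.7 to 23.3, BATF3 from 4.94 to 13.3 and TNFRSF8 from 4.97 to 5.10. GZMB went from 2.66 to 1.93, PRF1 from 2.87 to 1.89 and NPM1 from 7.10 to 6.08. ALK, also lower there, was below 0.5 in each library, at 0.0966 to 0.137 over its whole span. Of 4 genes of the T cell receptor complex, 2 reached 0.5 with DMSO and with SM-164 and 1 in each co-culture, at a summed RPKM of 1.36 to 2.75, and CD3E was at 0 to 0.00278. Of 4 B cell genes 0 reached 0.5, and MS4A1 was at 0 in all 4 libraries. Of 8 fibroblast and epithelial markers, to whose human copies hamster reads might align, 0 reached 0.5 in any library, and their summed RPKM was 0.600 with DMSO, 0.597 with SM-164, 0.530 on CHO cells and 0.306 on CD30L+ CHO cells. The part of hamster RNA in the results was not tested. RPKM is a share of each library, so fewer cells of a type and less RNA per cell cannot be told apart.

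The promoters of 4 members are shown. PMAIP1 and BCL2A1 had the highest ratios on CD30L+ CHO cells, BAK1 had the lowest, and BCL2L11 was almost without reads. BID had fewer reads still. Its windows are not shown and held no match to the motifs below. Each sequence is the 250 bases before the RefSeq start in GRCh38.p14, read 5′ to 3′ on the gene's strand, and capitals mark matches to the motifs named after it. The read counts below are on hg19, and the promoter coordinates are not converted.
PMAIP1, chr18:59899746-59899995, plus strand: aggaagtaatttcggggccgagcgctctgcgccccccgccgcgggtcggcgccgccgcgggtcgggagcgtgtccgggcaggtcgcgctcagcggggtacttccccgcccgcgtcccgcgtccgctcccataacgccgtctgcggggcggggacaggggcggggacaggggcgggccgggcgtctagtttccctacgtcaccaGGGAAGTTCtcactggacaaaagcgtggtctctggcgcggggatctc
BCL2A1, chr15:79971197-79971446, minus strand: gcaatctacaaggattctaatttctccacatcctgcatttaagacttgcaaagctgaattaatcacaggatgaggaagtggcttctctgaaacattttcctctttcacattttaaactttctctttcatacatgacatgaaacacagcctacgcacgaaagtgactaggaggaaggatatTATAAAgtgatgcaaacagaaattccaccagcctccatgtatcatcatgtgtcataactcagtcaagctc
BAK1, chr6:33580277-33580526, minus strand: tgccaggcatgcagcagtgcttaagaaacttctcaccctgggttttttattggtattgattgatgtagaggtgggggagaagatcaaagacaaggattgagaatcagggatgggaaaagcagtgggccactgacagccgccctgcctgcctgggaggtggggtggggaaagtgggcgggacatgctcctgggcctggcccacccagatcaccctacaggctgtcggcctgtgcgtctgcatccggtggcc
BCL2L11, chr2:111120664-111120913, plus strand: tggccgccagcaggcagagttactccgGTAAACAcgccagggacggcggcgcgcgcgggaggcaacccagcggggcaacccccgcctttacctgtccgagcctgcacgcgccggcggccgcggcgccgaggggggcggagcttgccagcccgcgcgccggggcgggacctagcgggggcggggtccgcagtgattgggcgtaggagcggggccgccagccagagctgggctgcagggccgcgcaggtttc
The motifs searched on both strands were NF-kB, as GGGANNTTC, GGGANNTCC, GGGGNNTTC or GGGGNNTCC, the AP-1 motif TGANTCA, the FOXO motif GTAAACA and the TATA box TATAAA. The AP-1 pattern reads the same on both strands, and no match in a member overlapped a match to another motif. RefSeq promoters matched 9 members, with 14 windows in all, and MCL1 had no entry in the table. PMAIP1 held an NF-kB pattern from position -47 to -39, counted back from the start, and BCL2 held one from -197 to -189. Over all 35116 promoters in the table, 16.5% held an NF-kB pattern. BCL2L11 held the FOXO pattern, found in 2.98% of promoters, and BBC3 the AP-1 pattern, found in 6.57%. TATAAA occurred in BCL2A1 from -70 to -65 and in 1 of the windows of BCL2L1, against 10.7% of promoters. The BAK1 window held none of these letters. GC content was 38.8% for BCL2A1 and 72.8% for PMAIP1, beside a median of 58.0% over all promoters. A match describes the sequence and does not show that a factor binds.

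Levels of the members ran from MCL1, far above the rest, to BID, with 0 to 3 reads. Values count exons and introns over the whole gene on hg19. MCL1, a short-lived survival protein that cells must make continually, had an RPKM of 89.3 with DMSO, 87.4 with SM-164, 64.6 on CHO cells and 80.7 on CD30L+ CHO cells. By RPKM it ranked between place 11 and place 22 of all 22798 genes in the 4 libraries. MCL1 made up 78.3% to 84.3% of the summed RPKM of the 10 members. It lies on chromosome 1 from 150547027 to 150552214 (hg19) and rested on 11881 to 19069 estimated reads, so counting error was small.

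The other survival genes were near or below an RPKM of 1 in the drug experiment. BCL2A1, on chromosome 15 from 80253232 to 80263643, encodes BFL1, a survival protein of lymphoid cells. Its RPKM was 0.570 with DMSO (0.490 to 0.658), 0.648 with SM-164 (0.556 to 0.751), 1.14 on CHO cells (1.05 to 1.24) and 2.13 on CD30L+ CHO cells (2.01 to 2.27). The drug libraries overlapped within counting error, and both co-cultures lay above them. BCL2L1, on chromosome 20 from 30252261 to 30310656, encodes BCL-XL. Its RPKM was 0.718 with DMSO, 0.709 with SM-164, 1.07 on CHO cells and 0.829 on CD30L+ CHO cells, so the plain CHO library was the highest. BCL2, on chromosome 18 from 60790579 to 60986613, founded the family as the gene at a lymphoma breakpoint and is the longest member at 196035 bases. Its RPKM was 0.239, 0.239, 0.204 and 0.257 in the same order, below 0.5 in every library, although 1229 to 2298 reads fell on the gene.

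Both effectors were transcribed in every library. BAK1, on chromosome 6 from 33540323 to 33548070, encodes the effector that resides in the mitochondrial membrane. Its RPKM was 1.27 with DMSO (1.13 to 1.42), 1.31 with SM-164 (1.16 to 1.48), 1.85 on CHO cells (1.71 to 1.99) and 1.04 on CD30L+ CHO cells (0.931 to 1.15). The CHO library stood above the rest, and CD30L+ CHO was the lowest, with an interval that touched the DMSO interval only at its edge. BAX, on chromosome 19 from 49458117 to 49465055, encodes the effector that moves from the cytosol to mitochondria. Its RPKM was 0.887 with DMSO (0.766 to 1.02), 0.818 with SM-164 (0.693 to 0.962), 0.606 on CHO cells (0.524 to 0.698) and 0.529 on CD30L+ CHO cells (0.451 to 0.615). BAX therefore lay below BAK1 in all 4 libraries, with a BAX to BAK1 ratio of RPKM of 0.697 with DMSO (0.579 to 0.838), 0.623 with SM-164 (0.506 to 0.764), 0.328 on CHO cells (0.278 to 0.386) and 0.511 on CD30L+ CHO cells (0.423 to 0.615).

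The BH3-only genes were split between 1 strongly transcribed gene, 1 low gene and 2 genes almost without reads. PMAIP1, on chromosome 18 from 57567192 to 57571538, encodes NOXA and had an RPKM of 12.5 with DMSO, 14.1 with SM-164 (13.4 to 14.8), 8.92 on CHO cells (8.51 to 9.34) and 16.9 on CD30L+ CHO cells (16.3 to 17.5). It ranked second among the members in every library and between place 104 and place 292 of all genes. BBC3, on chromosome 19 from 47724079 to 47736023, encodes PUMA, a mediator of the p53 death response. It had an RPKM of 0.357 with DMSO (0.297 to 0.422), 0.563 with SM-164 (0.482 to 0.652), 0.642 on CHO cells (0.577 to 0.714) and 0.644 on CD30L+ CHO cells (0.578 to 0.715). DMSO was the lowest library for this gene, and the intervals of the remaining libraries overlapped.

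BCL2L11 and BID were the silent end of the family. BCL2L11, on chromosome 2 from 111878491 to 111926022, had 3 estimated reads with DMSO, 4 with SM-164, 18 on CHO cells and 13 on CD30L+ CHO cells over 47532 bases. Its highest RPKM was 0.00825. BID, on chromosome 22 from 18216906 to 18257431, had 0 reads with DMSO, 1 with SM-164, 3 on CHO cells and 0 on CD30L+ CHO cells over 40446 counted bases. With 0 reads a true count of up to 3 is allowed, for BID an RPKM of 0.00239 with DMSO and 0.00163 on CD30L+ CHO cells. The upper ends of the 95% intervals used for the other levels are 0.00294 and 0.00200. These libraries cannot show a difference in BID, and its ratio is not given.

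Order within a library was therefore MCL1 first and PMAIP1 second throughout, and BCL2L11 and BID last. Between them, BAK1, BAX, BCL2L1, BCL2A1, BBC3 and BCL2 lay within 0.204 to 2.13. With DMSO they ran BAK1, BAX, BCL2L1, BCL2A1, BBC3 and BCL2 from high to low, and no neighbours in that order had overlapping intervals. With SM-164 the order was the same, but the intervals of BAX and BCL2L1, of BCL2L1 and BCL2A1 and of BCL2A1 and BBC3 overlapped. On CHO cells BCL2A1 and BCL2L1 overlapped below BAK1, and BBC3 and BAX overlapped below them. On CD30L+ CHO cells BCL2A1 was highest of the 6, clear of BAK1, and BBC3 and BAX overlapped.

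**Figure D1:**
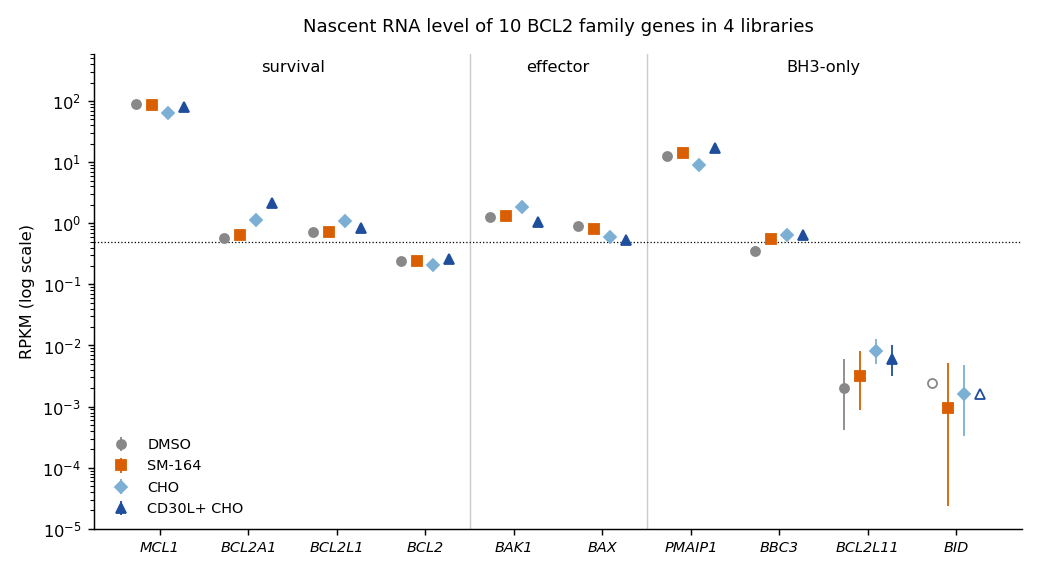
RPKM on a log axis of the 10 members in the 4 libraries, grouped as survival, effector and BH3-only genes, with 95% Poisson intervals for counting error where they exceed the symbol; open symbols mark a count of 0, drawn at the level of 3 reads, and the dotted line is an RPKM of 0.5. MCL1 lies at 64.6 to 89.3 and PMAIP1 at 8.92 to 16.9, while BCL2L11 and BID lie below 0.01.

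The drug comparison addressed how transcription responds to an IAP antagonist. With SM-164, 0 of 6 tested members reached 2-fold upward and 0 reached 2-fold downward relative to DMSO. A gene was tested when its mean RPKM over both libraries was at least 0.5, and called when the log2 ratio of RPKM + 0.25 reached the fold. All 6 tested members (BCL2L1, MCL1, BCL2A1, BAX, BAK1 and PMAIP1) were at or above 0.5 in both libraries. Over all 7881 genes tested, 0.190% were called 2-fold higher and 0.0634% 2-fold lower, so 0 of 6 is near the background. At 1.5-fold the count of members was again 0 in each direction, against 0.787% higher and 1.10% lower over all genes. The median log2 ratio of the tested members was 0.01, beside -0.04 over all genes.

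MCL1 differed by a fold of 0.979 (0.955 to 1.00) and BCL2L1 by 0.987 (0.910 to 1.07), where a fold is the ratio of reads per library total. Their log2 ratios were -0.03 and -0.01 by the authors' totals and 0.01 and 0.02 under TMM scaling, which matches libraries on the bulk of their genes, so neither has a firm direction. BCL2, too low to be tested, was at 1.00 (0.928 to 1.08). The intervals of BAX, at 0.923 (0.740 to 1.15), and BAK1, at 1.03 (0.873 to 1.22), included 1, as did that of BCL2A1, at 1.14 (0.921 to 1.41). PMAIP1 was 1.13-fold higher with SM-164 (1.05 to 1.21), a log2 ratio of 0.17.

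BBC3 had the largest fold of the drug comparison among members with more than a few reads. It rested on 131 reads with DMSO and 175 with SM-164, a fold of 1.58 (1.25 to 2.00). Its mean RPKM of 0.460 was below the minimum, so it was not among the tested members, and its log2 ratio with the pseudocount was 0.42. BCL2L11 had a ratio of 1.58 with an interval of 0.267 to 10.8, so no difference can be seen with so few reads.

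The second comparison addressed what CD30 engagement by its ligand adds to contact with CHO cells. PMAIP1 and BCL2A1 were higher on CD30L+ CHO cells and BAK1 was lower, all short of the 2-fold rule. PMAIP1 was 1.89-fold higher (1.79 to 2.01), from 1779 reads on CHO cells to 3343 on CD30L+ CHO cells, a log2 ratio of 0.90. BCL2A1 was 1.87-fold higher (1.68 to 2.08), from 545 to 1012 reads, a log2 ratio of 0.78. BAK1 was lower, with 365 reads against 657, at a fold of 0.560 (0.491 to 0.637) and a log2 ratio of -0.71.

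Of the 7 tested members, which here included BBC3 and were all at or above 0.5 in both libraries, 0 were called 2-fold higher and 0 were called 2-fold lower. The background was 0.979% higher and 0.731% lower of 7661 genes. At 1.5-fold 2 members were higher and 1 was lower, against 2.62% and 4.99% of all genes. Among all tested genes, PMAIP1 stood at place 91 from the top, BCL2A1 at place 128 and BAK1 at place 7452. The median log2 ratio was 0.00 for the members and -0.12 for all genes. TMM scaling moved the median of all genes by 0.17, to 0.06, and the split of all genes at 2-fold from 75 higher and 56 lower to 112 higher and 33 lower. Under it PMAIP1 passed the 2-fold rule with a log2 ratio of 1.10, BCL2A1 reached 0.95, and BAK1 was at -0.53. Relative to the median of all genes, the log2 ratios were 1.02 for PMAIP1, 0.89 for BCL2A1 and -0.59 for BAK1.

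MCL1 was 1.25-fold higher on CD30L+ CHO cells (1.22 to 1.28), a log2 ratio of 0.32, at the 93.9th percentile of all tested genes. BCL2 was 1.26-fold higher (1.19 to 1.34) but was not tested because of its low RPKM. BCL2L1 went the other way, with a fold of 0.778 (0.735 to 0.822) and a log2 ratio of -0.29, or -0.17 relative to the median of all genes. Under TMM scaling its log2 ratio was -0.12. It lay at the 23.0th percentile of all tested genes, so many genes had a lower ratio. Survival genes thus did not move as 1 block: BCL2A1, MCL1 and BCL2 had folds above 1 and BCL2L1 had a fold below 1.

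BAX, at 0.872 (0.705 to 1.08), and BBC3, at 1.00 (0.861 to 1.17), had intervals that included 1. The log2 ratio of BAX was -0.14 by the authors' totals and 0.01 under TMM scaling, so its direction depends on scaling. BCL2L11 had a ratio of 0.728 with an interval of 0.328 to 1.57, which 13 and 18 reads cannot narrow.

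The control libraries were also set against each other, as a measure of how far conditions without drug or ligand lie apart. These libraries differ in contact with CHO cells, in collection by pipetting and in the experiment, and these cannot be told apart. BCL2A1 was 2.00-fold higher on CHO cells than with DMSO (1.69 to 2.38), beside the 1.87-fold between CD30L+ CHO and CHO cells. BBC3 was 1.81-fold higher (1.47 to 2.23), just outside the test at a mean RPKM of 0.499. BCL2L1 was 1.48-fold higher (1.39 to 1.59) and BAK1 1.45-fold higher (1.27 to 1.67). PMAIP1 was at 0.711 of its DMSO level (0.665 to 0.760), MCL1 at 0.723 (0.707 to 0.740), BAX at 0.683 (0.557 to 0.839) and BCL2 at 0.853 (0.796 to 0.915).

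Of the 6 members tested between the controls, 0 were called 2-fold higher and 0 were called 2-fold lower, where all genes gave 0.879% and 4.52% of 8081. At 1.5-fold BCL2A1 was the 1 member called higher and 0 were called lower, against 7.07% and 10.7% of all genes. All 6 tested members differed between the controls by a larger log2 ratio than between SM-164 and DMSO. The CHO library enters this comparison and the one with CD30L. BAK1 and BCL2L1 were highest of the 4 libraries on CHO cells, and MCL1, PMAIP1 and BCL2 were lowest there. PMAIP1, BCL2 and BCL2A1 were highest of the 4 on CD30L+ CHO cells, whereas MCL1 on CD30L+ CHO cells, at 80.7, was below its level with DMSO, at 89.3. BAK1 on CD30L+ CHO cells, at 1.04, was lowest of the 4.

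**Figure D2:**
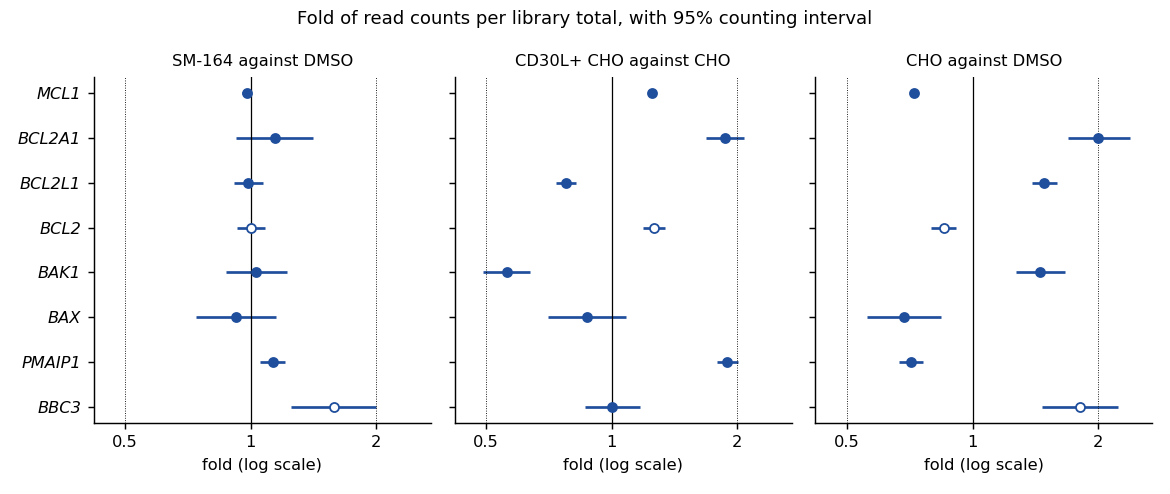
Fold on a log axis for 8 members in the comparisons SM-164 against DMSO, CD30L+ CHO against CHO and CHO against DMSO, from reads per library total, with 95% intervals for counting error; open symbols are members below the expression minimum, the solid line is 1 and the dotted lines are 2-fold. PMAIP1 (1.89) and BCL2A1 (1.87) are highest and BAK1 (0.560) lowest in the ligand panel, and in the drug panel all 6 tested members lie between 0.923 and 1.14.

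Because the experiments have separate controls, the folds were also compared with each other, with an interval that covers counting error in all 4 libraries and nothing else. The ligand fold over the drug fold was 1.68 for PMAIP1 (1.54 to 1.84), 1.64 for BCL2A1 (1.30 to 2.07), 1.28 for MCL1 (1.24 to 1.32) and 1.26 for BCL2 (1.14 to 1.39). It was 0.542 for BAK1 (0.440 to 0.668), 0.788 for BCL2L1 (0.714 to 0.869) and 0.634 for BBC3 (0.483 to 0.831). For BAX it was 0.944 with an interval of 0.701 to 1.27. The spread between replicate libraries was not measured in either experiment, so these differences beyond counting error have no replicate test.

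By the rule of smallest distance in both log2 ratios, the genes most like PMAIP1, the member with the largest ratio, included NR6A1, B4GALT1, CDC42SE1 and ALAS1, out of 7210 genes tested in both comparisons. Their log2 ratios were 0.11 to 0.24 with SM-164 and 0.80 to 0.84 on CD30L+ CHO cells, beside 0.17 and 0.90 for PMAIP1. The likeness rests on 2 ratios from 4 libraries, and the levels differ: CDC42SE1 had an RPKM of 8.16 on CHO cells and NR6A1 1.06.

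**Figure D3:**
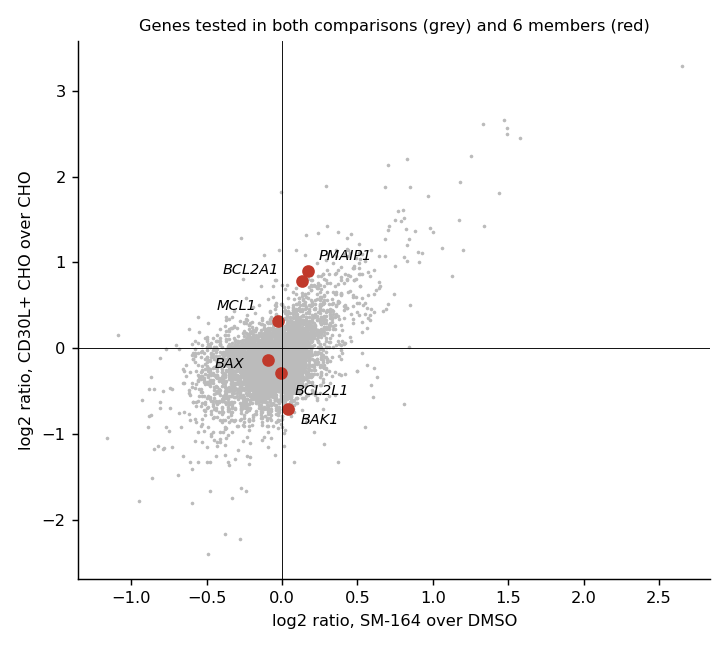
Log2 ratio of RPKM + 0.25 for SM-164 over DMSO (horizontal) and for CD30L+ CHO over CHO (vertical) for the 7210 genes tested in both comparisons (grey), with the 6 members among them in red. The members spread along the vertical axis from -0.71 (BAK1) to 0.90 (PMAIP1) and stay between -0.09 and 0.17 on the horizontal one.

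Summed over the classes, RPKM was dominated by MCL1 and PMAIP1. These genes have the shortest spans of the members, 5188 and 4347 bases, against 196035 for BCL2. The part of gene length in these shares was not tested. The survival genes held 85.8% of the summed RPKM of the members with DMSO, 84.1% with SM-164, 84.8% on CHO cells and 81.5% on CD30L+ CHO cells. The BH3-only genes held 12.2%, 13.9%, 12.1% and 17.0%, nearly all of it PMAIP1. The effectors held 2.04%, 2.02%, 3.11% and 1.52%. The CD30L+ CHO library had the lowest survival share and the highest BH3-only share. These are shares of nascent RNA and say nothing of protein.

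NOXA acts by binding MCL1, so the levels of this pair were set beside each other. The RPKM of MCL1 was 7.12 times that of PMAIP1 with DMSO (6.77 to 7.49), 6.18 times with SM-164 (5.87 to 6.52), 7.24 times on CHO cells (6.89 to 7.61) and 4.78 times on CD30L+ CHO cells (4.61 to 4.96). The ratio was lowest on CD30L+ CHO cells, where the folds against CHO cells were 1.25 for MCL1 and 1.89 for PMAIP1, and the intervals of both controls overlapped.

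Without MCL1, the summed RPKM of BCL2, BCL2L1 and BCL2A1 was 1.53 with DMSO, 1.60 with SM-164, 2.41 on CHO cells and 3.22 on CD30L+ CHO cells. BCL2A1 was at 0.793 of the RPKM of BCL2L1 with DMSO (0.676 to 0.926), 0.915 with SM-164 (0.776 to 1.07), 1.07 on CHO cells (0.975 to 1.17) and 2.58 on CD30L+ CHO cells (2.39 to 2.78). Their order thus changed from BCL2L1 above BCL2A1 with DMSO to the reverse on CD30L+ CHO cells, and in the remaining libraries the interval included 1.

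**Figure D4:**
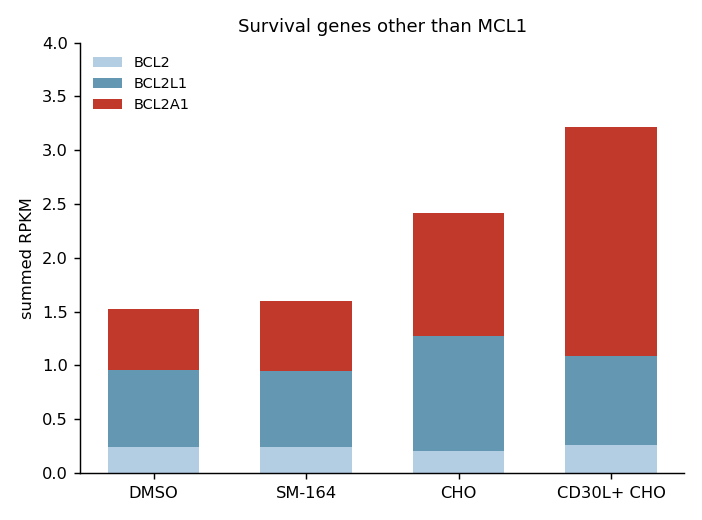
Stacked bars of the RPKM of BCL2, BCL2L1 and BCL2A1 in each of the 4 libraries, 1 library per bar and so without error bars. The bars rise from 1.53 with DMSO to 3.22 on CD30L+ CHO cells, where BCL2A1 contributes 2.13.

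Reads on the opposite strand, which the choice of members did not use, were examined for the 9 members with an antisense feature analysed here. Antisense reads were rare at MCL1, PMAIP1, BCL2 and BAK1, at most 0.752% of the reads of both strands in any library, and at BAX and BCL2A1 at most 4.46% and 3.16%. At MCL1 the share was 0.0157% to 0.0421%, which shows that strand was kept in each library. BCL2L1 stood apart from these, with 526 antisense reads with DMSO, 484 with SM-164, 736 on CHO cells and 637 on CD30L+ CHO cells. Its antisense share was 28.8% (26.7 to 30.9), 30.8% (28.6 to 33.2), 20.5% (19.2 to 21.8) and 22.4% (20.9 to 24.0) in that order, with exact binomial intervals. The median over genes at an RPKM of at least 0.5 was 0.353% to 0.433%, and BCL2L1 lay between the 93.4th and the 97.7th percentile.

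On CHO cells the lower antisense share of BCL2L1 went with more sense reads. On CD30L+ CHO cells both strands differed from DMSO. There the antisense RPKM of BCL2L1 was 0.240 against 0.290, and its sense RPKM 0.829 against 0.718. Its antisense reads per library total were 0.946-fold on CHO cells against DMSO (0.845 to 1.06), while its sense reads were 1.48-fold. On CD30L+ CHO against CHO cells the antisense fold was 0.872 (0.783 to 0.971) and the sense fold 0.778. On the plus strand, which carries these antisense reads, the nearest gene at lower coordinates is COX4I2, 19460 bases away, with 0 or 1 read per library. BBC3 had an antisense share of 7.94% to 13.2%, from 20 to 42 reads, with intervals that overlapped between all libraries. SAE1, on the plus strand, ends 10185 bases before the span of BBC3 and had 12131 to 13219 reads.

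At BID nearly all reads were antisense. The antisense feature held 32 reads with DMSO, 20.4 with SM-164, 74 on CHO cells and 53 on CD30L+ CHO cells, against 0 to 3 sense reads. BCL2L13, another family member, is transcribed on that plus strand and ends 4916 bases before BID begins, with 1986 to 3769 reads per library. Whether the antisense reads at BID continue from BCL2L13 was not tested. The span of BID thus held reads almost only on 1 strand, and where they fall within it was not examined.

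**Figure D5:**
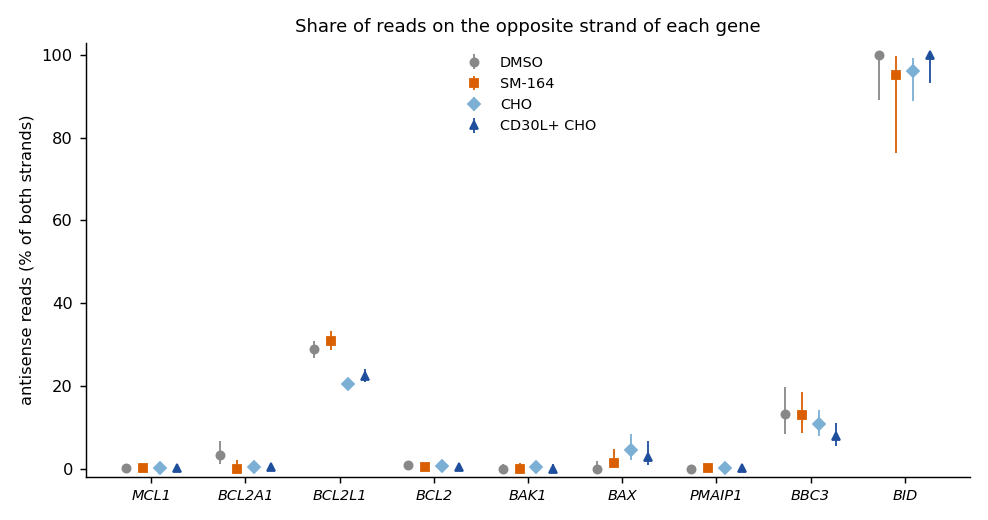
Antisense reads as a percentage of the reads on both strands for 9 members in the 4 libraries, with exact 95% binomial intervals. BID lies at 95.2% to 100%, BCL2L1 at 20.5% to 30.8% and BBC3 at 7.94% to 13.2%.

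Of 13 other BCL2 family genes, 3 were tested in each comparison and 0 reached 1.5-fold in any. Over all genes, 0.787% to 10.7% did so, by comparison and direction. They were BCL2L2, which encodes the survival protein BCL-w, BCL2L13 and BNIP3, a mitochondrial BH3-like protein linked to mitophagy. BNIP3 had the lowest log2 ratio of the 3 in both main comparisons, -0.25 with SM-164 and -0.25 on CD30L+ CHO cells. The medians of the list were -0.08 and -0.03, beside -0.04 and -0.12 over all genes. A further 9 were below an RPKM of 0.5 in all libraries, among them BOK, BIK, HRK and BCL2L14 at or under 0.01.

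Other genes of the mitochondrial death machinery were mostly transcribed, with 10 of 11 genes tested. HTRA2, which encodes a mitochondrial protease that is released in apoptosis and can bind IAP proteins, had the highest log2 ratio in both main comparisons. Its RPKM was 0.623 with DMSO, 1.12 with SM-164, 0.798 on CHO cells and 1.48 on CD30L+ CHO cells. The log2 ratios were 0.65 with SM-164 and 0.73 on CD30L+ CHO cells, where the fold was 1.86 (1.52 to 2.28), and HTRA2 was the 1 gene of the list past 1.5-fold in each. VDAC3, a channel of the outer membrane, was lowest with SM-164 (-0.30), and CASP9, the caspase of the apoptosome, was lowest on CD30L+ CHO cells (-0.33). The medians were -0.08 and -0.06, beside -0.04 and -0.12 over all genes. At 1.5-fold higher, all genes gave 0.787% with SM-164 and 2.62% on CD30L+ CHO cells. No gene of the list reached 2-fold in either main comparison, against at most 0.979% of all genes in each direction.

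Among 4 genes whose products control MCL1 protein, HUWE1 had log2 ratios of 0.48 and 0.93, and USP9X, FBXW7 and MARCH5 lay between -0.04 and 0.03 in both main comparisons. HUWE1 encodes MULE, a ubiquitin ligase that marks MCL1 for destruction. Its RPKM was 4.84 with DMSO, 6.84 with SM-164, 4.45 on CHO cells and 8.73 on CD30L+ CHO cells. It was 1.41-fold higher with SM-164 (1.39 to 1.44) and 1.96-fold higher on CD30L+ CHO cells (1.94 to 1.99), a log2 ratio of 0.93 that was short of the 2-fold rule. The lowest of the 4 was USP9X, a deubiquitinase that stabilises MCL1, at -0.02 with SM-164, and MARCH5, a mitochondrial ubiquitin ligase, at -0.04 on CD30L+ CHO cells.

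Of 12 transcription regulators that act on member genes, 9 were tested with SM-164 and 10 on CD30L+ CHO cells. NFKB1, which encodes the NF-kB subunit p50 and its precursor, was the 1 gene called 2-fold, on CD30L+ CHO cells, with an RPKM of 3.68 against 1.37 and a fold of 2.68 (2.61 to 2.75). With SM-164 NFKB1 had an RPKM of 1.97 against 1.14, a log2 ratio of 0.68. REL, an NF-kB subunit gene named after its values were seen, was 2.00-fold higher on CD30L+ CHO cells (1.89 to 2.11), a log2 ratio of 0.84. ATF4, a stress response factor, was lowest with SM-164 at -0.34, and E2F1, a cell cycle factor, was lowest on CD30L+ CHO cells at -0.36. The medians were 0.04 and 0.09, beside -0.04 and -0.12 over all genes. On CD30L+ CHO cells 0.979% of all genes were called 2-fold higher.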

How the data were processed

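Bru-seq of 4 Karpas 299 libraries was analysed from the processed tables. Per the submitters' processing notes, the build was hg19 and the tools were TopHat 1.4.1, bedtools 2.16.2, Bowtie 0.12.8 and CASAVA 1.8.2. The sources used here name no gene annotation. The authors deposited an estimated count for each feature, introns included, a signal per counted base, which is that count divided by the bases, and an RPKM scaled by 1 library total per file. Exon and intron reads cannot be told apart. Sense features held 78.4% to 79.6% of the library totals.

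The members and the lists were chosen with earlier results of these data known. Sense features were used, and a repeated symbol kept the entry with most counted bases. Log2 ratios used RPKM + 0.25, for genes whose mean RPKM was 0.5 or more and whose counted length was 300 bases or more. Folds divided rounded estimated counts by library totals, with exact conditional (Clopper-Pearson) intervals; levels had exact Poisson intervals. The interval of the difference between folds used a normal approximation on the log scale. With 1 library per condition no p-value was computed. Named genes were all 10 members, and of each list the genes at 2-fold, otherwise the highest and lowest. Alternatives were pseudocounts of 1 and 0.1, an expression minimum of 1 RPKM or none, a minimum of 1000 bases, 1.5-fold, an interval that excludes 1, the median set to 0, TMM scaling (edgeR 4.0.16 in R 4.3.3) and subtraction of a running median over 301 genes ordered by length. The procedure was tested on simulated counts with counting noise and planted changes larger than that of any tested member. They held no spread between libraries, so that test does not bear on replicate spread. Computation used scipy 1.17.1, pandas 2.3.3, numpy 2.4.6 and, for figures, matplotlib 3.10.9 under Python 3.11.15.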

Additional observations from a re-analysis of the deposited data

How the results depend on the processing

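No paired analysis was possible because each condition had 1 library. For the same reason no library could be left out. No member was called at 2-fold in the comparisons as reported. On CD30L+ CHO cells 1 member, PMAIP1, was called higher after centring all genes on a median of 0, under TMM scaling and with the length trend subtracted, where 92, 112 and 96 of all genes were called higher, against 75 as reported. At 1.5-fold 2 members were higher and 1 lower there, and 1 was higher between the controls. With a mean RPKM of at least 1, the median log2 ratio of the tested members was 0.55 on CD30L+ CHO cells and -0.47 between the controls, where fewer members were tested. Signs of single members changed in 6 of 45 alternative values with SM-164 (MCL1, BCL2L1 and BAX) and in 0 of 45 between the controls. On CD30L+ CHO cells BAX alone changed sign, from -0.14 to 0.01 under TMM scaling and 0.08 with the length trend subtracted. BBC3, at 0.00 as reported, was at 0.12 with the median set to 0. It was at 0.15 under TMM scaling and with the length trend subtracted. Over all alternatives the log2 ratio on CD30L+ CHO cells was 0.85 to 1.13 for PMAIP1, 0.55 to 0.98 for BCL2A1 and -0.78 to -0.48 for BAK1.

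Counts over all genes moved more. With SM-164, 15 higher genes became 8 with a pseudocount of 1 and 62 at 1.5-fold; 5 lower genes became 9 with a pseudocount of 0.1, 3 with 1, 9 without an expression minimum, 1 with 1000 counted bases, 87 at 1.5-fold and 0 with the length trend subtracted. On CD30L+ CHO cells, 75 higher genes became 43 with a pseudocount of 1 and 201 at 1.5-fold, and 56 lower genes became 97 and 15 with pseudocounts of 0.1 and 1, 31 with a mean RPKM of 1, 382 at 1.5-fold, 33 under TMM scaling and 24 with the length trend subtracted. Between the controls, 71 higher genes became 111 and 18 with these pseudocounts, 46 with a mean RPKM of 1, 571 at 1.5-fold and 137 with the length trend subtracted, and 365 lower genes became 209 with a pseudocount of 1, 867 at 1.5-fold and 232 with the length trend subtracted. Except where a looser or stricter rule itself changes the number of genes, the cause was not tested. Depth limits BID, BCL2L11 and the antisense values.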

Other observations

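Next to the nearly silent BCL2L11 lies ACOXL, an acyl-CoA oxidase-like gene on the same strand that ends 2691 bases before BCL2L11 begins. It was named after its values were seen. ACOXL had 7 reads with DMSO, 3 with SM-164, 15 on CHO cells and 73 on CD30L+ CHO cells. The fold on CD30L+ CHO against CHO cells was 4.90 (2.79 to 9.21, counting error only), at an RPKM of 0.00416, far below the expression minimum. BCL2L11 itself had 13 reads against 18 in that comparison.

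BMF, a BH3-only gene outside the 10 members and also named after its values were seen, had an RPKM of 0.0461 with DMSO, 0.0563 with SM-164, 0.214 on CHO cells and 0.194 on CD30L+ CHO cells. Its co-culture libraries held 206 and 185 reads, against 30 and 31 in the drug experiment. Co-culture, pipetting and the experiment cannot be told apart here.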
